A study of Cyprinus carpio with 2 samples.

Results

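The DEAD and DEAH box helicases described here are the unigenes whose first gene symbol begins with ddx or dhx followed by a digit. The rule found 81 of the 22634 unigenes with values, 50 of them ddx and 31 dhx, which carry 35 different symbols (26 ddx and 9 dhx). All 81 have a row in the expression table, and 0 come from the authors' testis list alone. The transcripts were measured by RNA sequencing of immature gonads from juvenile Cyprinus carpio, the common carp, sampled between 110 and 130 days post hatch. The series has 1 testis library and 1 ovary library, without any treatment or genotype named in the labels, which do not give the number of fish behind each library. A unigene is a numbered transcript unit, and several unigenes can stand for 1 gene or for near-identical copies of it in the duplicated carp genome, so the split of reads among unigenes of 1 symbol is uncertain.

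DEAD and DEAH box proteins use ATP to bind, unwind or remodel RNA and RNA-protein complexes, and are named after the amino acids of a motif that takes part in ATP hydrolysis. DEAD box proteins mostly open short duplexes locally, whereas DEAH box proteins mostly move along a strand. The roles given below are known mainly from yeast and mammals and are stated as background. In gonads the family is best known for the germ cell helicase ddx4 (vasa), but no row has that symbol, so ddx4 was not analysed here.

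The value columns are called A and B in the tables. The former was assigned to the ovary and the latter to the testis, because all 127 unigenes of the authors' ovary list are higher in A and all 171 of their testis list are higher in B. An error in those list titles would exchange every direction below. All 24 unigenes of 9 oocyte symbols, such as zp2 and gdf9, lay toward A, and 5 unigenes of testis somatic genes, such as amh, lay toward B, while foxl2 and cyp19a1 had no row. Reads were recovered from the steps of the deposited values, and they came to 4311799 in ovary and 1926860 in testis over all unigenes. As deposited, the ovary value of the median unigene exceeded its testis value 1.78-fold. A read carries 2.31 deposited units in ovary and 1.73 in testis, so values as deposited widen the difference in depth. Folds below are therefore testis over ovary or ovary over testis relative to the median ratio of all unigenes, and the log2 ratio is on the same relative scale, with a pseudocount of 1 deposited unit. Each 95% confidence interval (CI) is exact and reflects counting error alone. Since there is 1 library per tissue, differences lack a replicate check and were not tested. In whole gonads, fewer cells of a type and less RNA per cell cannot be told apart.

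Relative to the median of all unigenes, most helicase unigenes lay toward ovary. With equal total reads in the libraries, without centring on that median, the helicase median turned to the testis side. That scaling shifts all unigenes alike, so the distance of the helicases from the median of all unigenes does not change. Relative to the latter, the median log2 ratio of the 81 unigenes was -0.65, or 1.57-fold higher in ovary, with quartiles of -1.30 and 0.21. Of the 81, 58 (71.6%) lay below the median of all unigenes, against 51.1% of the 21649 unigenes that reached 5 deposited units in either library. Large differences were few. At least 4-fold higher in ovary were 7 of the 81 (8.64%), against a background of 11.2%, and at least 4-fold higher in testis were 3 (3.70%), against 13.8%. The 7 were 3 unigenes of ddx39ab, both of dhx30 and 1 each of ddx19 and dhx57, and the 3 were 1 unigene each of ddx21, dhx33 and dhx40. The log2 ratios of the helicases ran from -2.65 to 2.66, whereas those of all unigenes ran from -7.72 to 8.62.

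**Figure D1:**
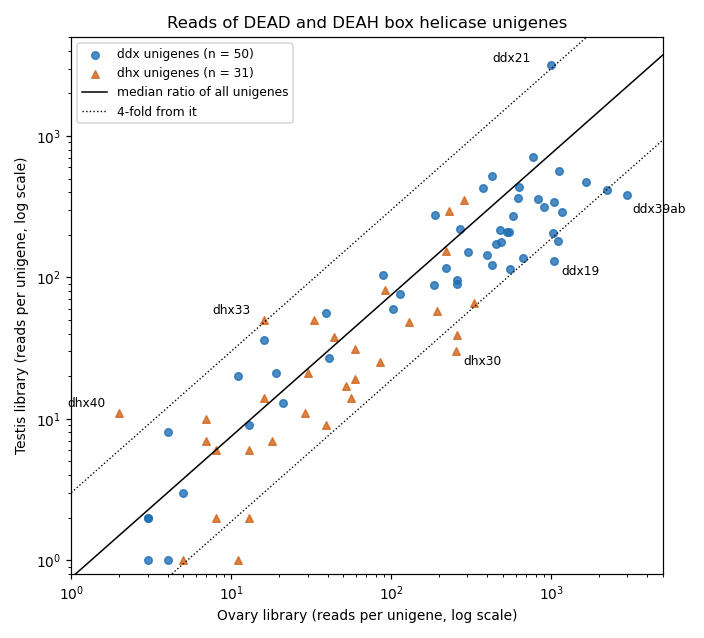
Reads per unigene in the ovary library (horizontal axis, log scale) and the testis library (vertical axis, log scale) for the 50 ddx and 31 dhx unigenes, with 1 point per unigene. The solid line is the median ratio of all unigenes and the dotted lines lie 4-fold from it; 58 of the 81 points have a log2 ratio below the median.

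The depth behind these values was uneven. The helicase unigenes had a median of 251 reads in both libraries together, against 89 for all unigenes, and ranged from 4 reads to 4190. The interval of the ratio lay entirely toward ovary for 39 unigenes (48.1%, background 31.5%) and entirely toward testis for 14 (17.3%, background 28.8%), and it included the median ratio for 28. These backgrounds include many unigenes of lower depth, which have wider intervals. Among unigenes with at least 100 reads, 37 of 47 helicases lay below the median of all unigenes, against 59.3% of all 10408 such unigenes. Their median log2 ratio was -0.97, and that of all unigenes of this depth was -0.36. At this depth the interval lay entirely toward ovary for 70.2% of the helicases and 49.9% of all unigenes, and entirely toward testis for 17.0% and 32.3%. None of the 81 helicases reached a p-value of 0.05 in the authors' deposited table (0 of 81; background 0.743% of the table), where their p-values ran from 0.156 for 1 dhx30 unigene to 0.999 for 1 dhx36 unigene.

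Compared by branch, as given by the symbol, the median log2 ratio was -0.62 over the 50 ddx unigenes and -0.87 over the 31 dhx unigenes, so that the ddx median was higher by 0.26. The motifs of the proteins were not checked. Without ddx26b, whose protein name is not that of a helicase, the ddx median was -0.67. At least 4-fold higher in ovary were 4 ddx (8%) and 3 dhx (9.68%) unigenes, below the background of 11.2%. At least 4-fold higher in testis were 1 ddx (2%) and 2 dhx (6.45%) unigenes, below the background of 13.8%. The quartiles overlapped widely, from -1.09 to 0.00 for ddx and from -1.35 to 0.25 for dhx. The order of the branches was not stable: the difference of ddx minus dhx was -0.37 with the unigenes of 1 symbol summed and -0.24 with a pseudocount of 10 units. It was 0.58 among earlier unigene numbers and -0.74 among later ones, 2 ranges described further on. The branches differed in depth, with a median of 587.5 reads per ddx unigene and 69 per dhx unigene. The annotation differed as well, since 28 of 31 dhx unigenes and 20 of 50 ddx unigenes have a protein name that begins with "Uncharacterized". Transcript lengths are not given in the tables, so these read numbers do not rank the genes by expression.

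Ribosome assembly helicases formed the largest role group, with 24 unigenes of 15 symbols, a median log2 ratio of -0.53, 2 unigenes (8.33%) at least 4-fold toward testis and 0 toward ovary, against the same backgrounds of 13.8% and 11.2%. The median was 0.04 when each unigene was set against its own range of unigene numbers, a split described further on. These proteins act in the nucleolus on precursors of ribosomal RNA. The unigenes of ddx21, a nucleolar helicase of ribosomal RNA transcription and processing, lay on opposite sides of the median of all unigenes. Its Unigene_66904 held 995 reads in ovary and 3195 in testis, the most testis reads of any helicase, and was 4.28-fold (95% CI 3.99 to 4.60) higher in testis. The other ddx21 unigene, Unigene_18125, held 1125 reads in ovary and 570 in testis and lay the other way, 1.48-fold (95% CI 1.34 to 1.64) higher in ovary. The 2 ddx21 unigenes thus had similar ovary reads and differed in testis reads, and summed they were 2.37-fold (95% CI 2.24 to 2.50) higher in testis. Against their own number ranges both lay toward testis, at log2 ratios of 0.95 for Unigene_66904 and 0.29 for Unigene_18125.

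At the opposite end of the ribosome group were ddx55 and ddx51, which act in large subunit assembly. For ddx55, 1029 reads in ovary and 206 in testis gave a 3.75-fold (95% CI 3.22 to 4.37) higher value in ovary. For ddx51, 555 reads in ovary and 115 in testis gave 3.62-fold (95% CI 2.96 to 4.46). Single unigenes of ddx49, ddx52 and ddx56 were also higher in ovary, by 1.96-fold, 2.05-fold and 1.90-fold, as were both unigenes of ddx18, by 2.14-fold and 1.58-fold. For ddx24 the differences toward ovary were 1.66-fold and 1.98-fold in its 2 unigenes, and for ddx31 1.49-fold. Against their own number range, log2 ratios were 0.13 and -0.12 for ddx24, 0.29 for ddx31 and -0.06 for ddx56. They were -2.18 for ddx52, -2.11 for ddx49 and -0.24 and -1.79 for ddx18, against -1.04 for ddx55 and -0.99 for ddx51. By contrast, ddx54 had 429 reads in ovary and 518 in testis and was 1.61-fold (95% CI 1.41 to 1.83) higher in testis relative to the median. In the same direction, ddx47, with 373 reads in ovary and 427 in testis, was 1.53-fold higher. Both ddx54 and ddx47 lay toward ovary in the values as deposited, although both had more reads in testis. For ddx27 the 627 reads in ovary and 436 in testis gave an interval that included the median ratio. The 3 ddx10 unigenes lay on both sides of it and together held 256 reads in ovary and 192 in testis, a ratio equal to the median.

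The DEAH members of this group are dhx37 and dhx33. Variants of human DHX37, a small subunit assembly factor, are associated with disorders of testis development. In carp the 3 dhx37 unigenes together held 363 reads in ovary and 253 in testis and were 1.08-fold (95% CI 0.914 to 1.27) higher in ovary, which is not distinguishable from the median ratio at this depth. For dhx33, Unigene_54565 held 16 reads in ovary and 50 in testis and was 4.17-fold (95% CI 2.33 to 7.84) higher in testis. The other 2 dhx33 unigenes, with 59 reads in ovary and 31 in testis and with 8 reads in ovary and 6 in testis, had intervals that included the median ratio.

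Splicing helicases, 13 unigenes of 4 symbols, had a median log2 ratio of -0.71, with 3 unigenes (23.1%) at least 4-fold toward ovary (background 11.2%) and 0 toward testis (background 13.8%). All 3 belong to ddx39ab, whose second deposited name is ddx39b, a helicase of early spliceosome assembly and of the packaging of mRNA for export. The 4 ddx39ab unigenes held 7480 reads in ovary and 1271 in testis, the most ovary reads of any helicase symbol, and together were 4.41-fold (95% CI 4.16 to 4.69) higher in ovary. They ranged from 2.99-fold (95% CI 2.63 to 3.42) for Unigene_69397, with 1162 reads in ovary and 291 in testis, to 5.82-fold (95% CI 5.23 to 6.49) for Unigene_18554, with 2970 reads in ovary and 383 in testis. The 2 between them were Unigene_69395, 4.05-fold (95% CI 3.65 to 4.51) from 2247 reads in ovary and 416 in testis, and Unigene_18553, 4.56-fold (95% CI 3.90 to 5.37) from 1101 reads in ovary and 181 in testis. All 4 intervals lay entirely toward ovary (background 31.5%, or 49.9% of unigenes with at least 100 reads). The 4 are unigenes of 1 symbol and are not independent.

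The other splicing helicases were less uneven. For ddx5, which also acts as a cofactor of transcription, Unigene_17376 with 1659 reads in ovary and 471 in testis was 2.64-fold (95% CI 2.38 to 2.93) higher in ovary. The other 3 ddx5 unigenes ranged from 1.4-fold higher in ovary to 1.47-fold higher in testis, the latter from 19 reads in ovary and 21 in testis. For ddx20, a part of the complex that assembles spliceosomal ribonucleoproteins, 426 reads in ovary and 123 in testis in its main unigene gave a 2.60-fold higher value in ovary. The 3 ddx42 unigenes, which encode a partner of the U2 ribonucleoprotein, together held 496 reads in ovary and 526 in testis. Of these, Unigene_71978 was 1.98-fold (95% CI 1.64 to 2.40) higher in testis, from 187 reads in ovary and 278 in testis. Set against its own number range, Unigene_71978 lay toward ovary, at a log2 ratio of -0.16.

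The mRNA export helicases lay toward ovary in all 4 of their unigenes (background 51.1%), with a median log2 ratio of -1.53. Of the 4, 3 are unigenes of ddx19. The protein of ddx19 (DBP5 in yeast) strips proteins from mRNA at the nuclear pore. Its Unigene_19254 held 1037 reads in ovary and 131 in testis and was 5.94-fold (95% CI 4.95 to 7.18) higher in ovary. The other ddx19 unigenes, with 669 reads in ovary and 137 in testis and with 398 reads in ovary and 143 in testis, were 3.66-fold (95% CI 3.04 to 4.43) and 2.09-fold higher in ovary. For ddx39aa, a close relative of ddx39ab, 1037 reads in ovary and 341 in testis gave 2.28-fold (95% CI 2.02 to 2.59).

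**Figure D2:**
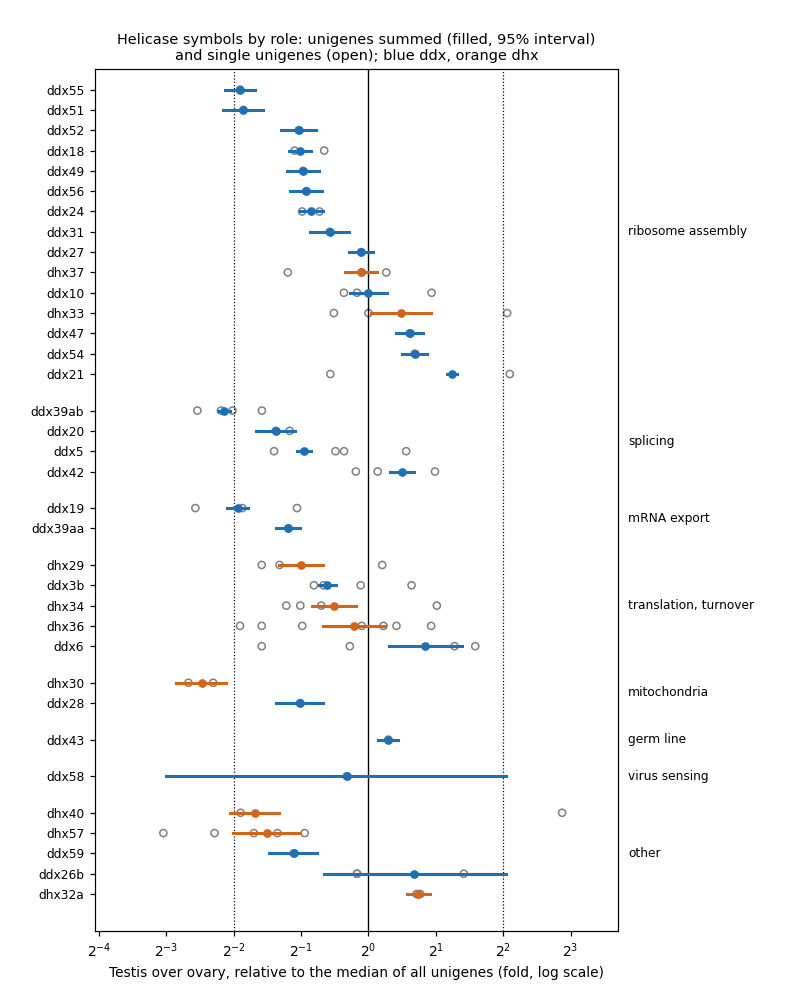
Testis over ovary fold relative to the median of all unigenes (horizontal axis, log scale) for each of the 35 helicase symbols, grouped by role. Filled points with bars are the summed unigenes of a symbol with their 95% counting interval, open points are single unigenes, and dotted lines mark 4-fold; summed ddx39ab and dhx30 lie past the line toward ovary and no symbol lies past the line toward testis, whereas centred on the median over symbols ddx39ab falls short of the line.

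Helicases of translation and mRNA turnover, 22 unigenes of 5 symbols, had a median log2 ratio of -0.43. Of them, 0 were 4-fold apart in either direction, against backgrounds of 11.2% toward ovary and 13.8% toward testis. The unigenes of ddx3b, also named pl10 in the table, encode a helicase of translation initiation. They together held 1512 reads in ovary and 742 in testis, and the one with the most reads, Unigene_19686, was 1.75-fold (95% CI 1.55 to 1.99) higher in ovary from 832 reads in ovary and 356 in testis. Set against its own number range, Unigene_19686 was at a log2 ratio of 0.05, and the other ddx3b unigenes at 0.19, -0.50 and -1.22. The decapping and translational repressor helicase ddx6 had few reads, 52 in ovary and 70 in testis over 4 unigenes. Of these, Unigene_52604, with 16 reads in ovary and 36 in testis, was 3-fold (95% CI 1.62 to 5.79) higher in testis, and Unigene_63339, with 11 reads in ovary and 20 in testis, 2.42-fold (95% CI 1.11 to 5.60). Within their number range, the later one, their log2 ratios were only 0.43 and 0.12. The earlier-numbered ddx6 unigenes were at 0.61 and -0.22 within theirs. The 4 ddx6 unigenes together were 1.79-fold (95% CI 1.24 to 2.62) higher in testis relative to the median of all unigenes.

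For dhx29, which helps the small ribosomal subunit scan structured leaders, Unigene_15201 held 56 reads in ovary and 14 in testis and was 3-fold (95% CI 1.65 to 5.84) higher in ovary. All 3 dhx29 unigenes together were 2.0-fold (95% CI 1.6 to 2.51) higher in ovary. For dhx34, a factor of nonsense-mediated decay, the 4 unigenes together were 1.43-fold higher in ovary, although Unigene_44182, with 33 reads in ovary and 50 in testis, was 2.02-fold (95% CI 1.28 to 3.24) higher in testis. Measured against its own number range, Unigene_44182 lay toward ovary, at a log2 ratio of -0.13. The 7 dhx36 unigenes, which encode a helicase of G-quadruplex structures, held 102 reads in ovary and 66 in testis in all, and each of their 7 intervals included the median ratio.

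The mitochondrial helicases had a median log2 ratio of -2.29 over 3 unigenes of 2 symbols, all toward ovary (background 51.1%). Both dhx30 unigenes, which encode a factor of mitochondrial ribosome assembly, were at least 4-fold higher in ovary (background 11.2%). Unigene_17328 held 255 reads in ovary and 30 in testis and was 6.38-fold (95% CI 4.36 to 9.64) higher, and Unigene_17330 held 257 reads in ovary and 39 in testis and was 4.94-fold (95% CI 3.52 to 7.11) higher. Together they gave 5.57-fold (95% CI 4.32 to 7.26), the largest value of the 35 summed symbols, but this interval overlaps that of summed ddx39ab. Both dhx30 unigenes are of the earlier number range, in which ddx39ab was 5.41-fold (95% CI 4.96 to 5.92) higher in ovary. For ddx28, another mitochondrial ribosome assembly factor, 259 reads in ovary and 96 in testis gave 2.02-fold (95% CI 1.6 to 2.58). Against its own number range, ddx28 was at a log2 ratio of -0.15.

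The germ line helicase measured was ddx43, an antigen of mammalian testis and tumours. Its single unigene held 767 reads in ovary and 706 in testis and was 1.23-fold (95% CI 1.11 to 1.36) higher in testis relative to the median, but 1.45-fold higher in ovary as deposited. The virus sensor ddx58 (RIG-I) had only 5 reads in ovary and 3 in testis.

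The remaining unigenes have no role assigned here. The 5 dhx57 unigenes lay toward ovary without exception (background 51.1%) and together held 166 reads in ovary and 44 in testis, 2.83-fold (95% CI 2.02 to 4.04) higher in ovary. All 5 are of the earlier number range, where the median log2 ratio of all unigenes was -0.86. Relative to that range, the log2 ratios of the 5 ran from -1.58 to -0.01. The most uneven of them, Unigene_2647, held 11 ovary reads and 1 testis read, a ratio of 8.25-fold (95% CI 1.20 to 355), and Unigene_2648 held 13 reads in ovary and 2 in testis, 4.88-fold (95% CI 1.10 to 44.5). With the pseudocount their log2 ratios were -2.45 and -1.97, so Unigene_2648 is not counted as 4-fold. The ddx59 unigene was 2.16-fold higher in ovary, from 259 reads in ovary and 90 in testis, but at a log2 ratio of -0.25 within its number range. Both dhx32a unigenes lay toward testis, by 1.70-fold and 1.64-fold. Both had more reads in testis but lay toward ovary as deposited. They also lay toward ovary against their own number range, at log2 ratios of -0.37 and -0.43. For dhx40 the unigenes were opposed: Unigene_15614 held 328 reads in ovary and 66 in testis and was 3.73-fold (95% CI 2.85 to 4.93) higher in ovary, while Unigene_80269 held 2 reads in ovary and 11 in testis and was 7.33-fold (95% CI 1.6 to 68.1) higher in testis. Together the dhx40 unigenes were 3.21-fold higher in ovary. The 3 ddx26b unigenes, whose deposited protein name is Integrator complex subunit 6 and not a helicase, held 10 reads in ovary and 12 in testis in all.

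Unigenes of the same symbol often disagreed, and the disagreement followed the unigene number. Of 35 symbols, 21 have several unigenes and 16 have unigenes in both an earlier number range, up to Unigene_23679, and a later one, from Unigene_23712 on. In all 16, the unigenes of the later range lay more toward testis than those of the earlier range, with a median of 2.54-fold between them. In 10 of the 16 the intervals of the ranges did not overlap, as in 2426 of the 4474 other symbols found in both ranges. Intervals apart in the opposite direction were found in 0 of the 16 and in 41 of the other symbols. For ddx21 the ranges differed by 6.34-fold, for dhx33 by 5.66-fold, for ddx6 by 3.70-fold, for dhx34 by 3.42-fold and for ddx39ab by 1.5-fold. The same held outside the family, where the later range was more toward testis for 95.7% of the 4474 other symbols found in both ranges, with a median of 3.27-fold. What the number stands for is not given in the sources used here, and its part in the helicase results was not tested.

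**Figure D3:**
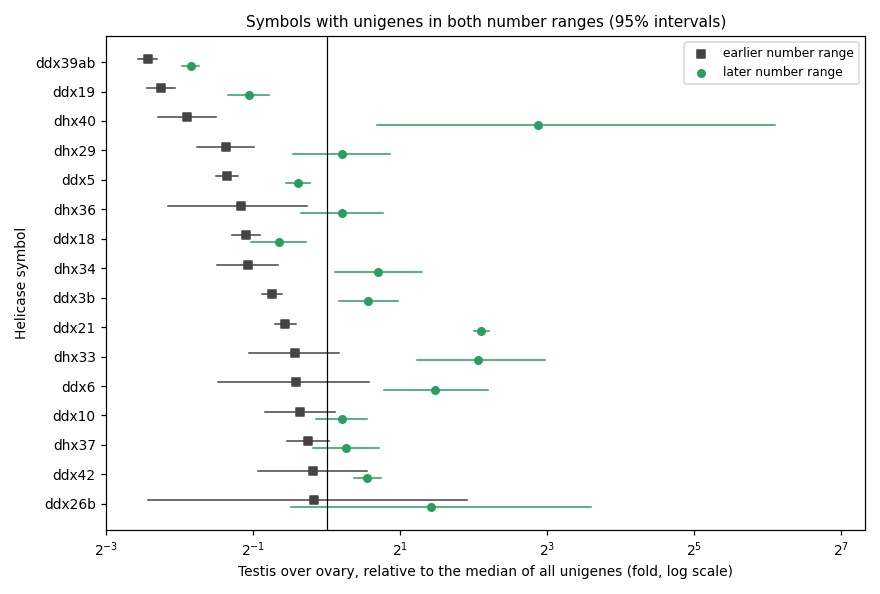
Testis over ovary fold relative to the median of all unigenes (horizontal axis, log scale) for the 16 helicase symbols with unigenes in both number ranges. Squares are the summed unigenes of the earlier range, circles those of the later range, and bars are 95% counting intervals; in each of the 16 symbols the circle lies to the right of the square.

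The number also moved the summary of the family. Over all unigenes the median log2 ratio was -0.86 in the earlier range and 1.14 in the later one. The 50 helicases of the earlier range had a median of -1.01, or -0.15 relative to the median of that range, and 30 of the 50 lay below it. The 31 helicases of the later range had a median of 0.24, or -0.90 relative to the median of that range, and 25 of the 31 lay below it. Measured against their own range, ddx unigenes had a median of 0.13 in the earlier range and -1.31 in the later one, and dhx unigenes -0.45 and -0.57. Centred in this way, 6 helicases were at least 4-fold toward ovary and 0 toward testis, and the median over all 81 was -0.33. By role, the medians centred in this way were 0.04 for ribosome assembly, -1.01 for splicing, -1.95 for mRNA export, -0.38 for translation and turnover and -1.43 for the mitochondrial group, so the export group and not the mitochondrial one was then the lowest. The export and mitochondrial groups hold only 4 and 3 unigenes, of 2 symbols each.

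**Figure D4:**
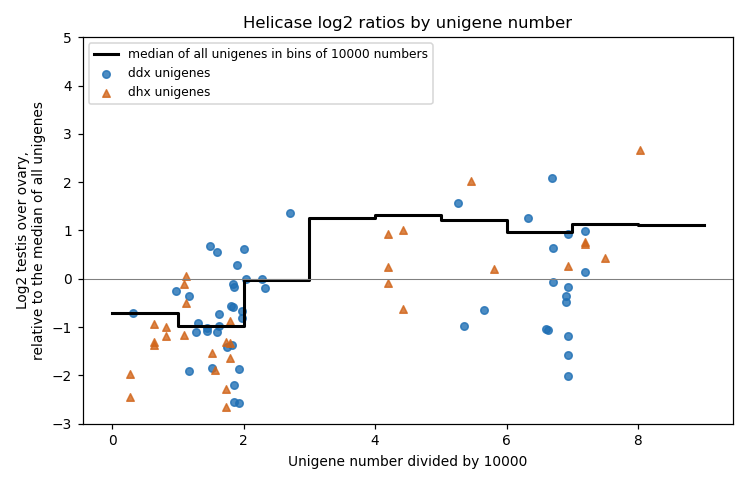
Log2 ratio of testis over ovary relative to the median of all unigenes (vertical axis) by unigene number divided by 10000 (horizontal axis), with circles for ddx and triangles for dhx unigenes. The black line is the median of all unigenes in bins of 10000 numbers; it is below 0 up to 30000 and above 0.9 from 30000 on, and most helicases of the later numbers lie under it.

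The direction of the family depended on how the libraries were scaled. As deposited, the median log2 ratio of the 81 helicases was -1.48, with 23 at least 4-fold higher in ovary (background 23.2%) and 0 in testis (background 6.14%). With equal total reads it was 0.10, with 0 at least 4-fold higher in ovary (background 5.46%) and 6 in testis (background 23.2%). Both scalings shift all unigenes alike, so the helicase median stayed at the same distance below the median of all unigenes. In reads, helicases made up 0.668% of the ovary total and 0.729% of the testis total, and without the ddx21 Unigene_66904 these shares were 0.645% and 0.563%. Under 5 scalings (as deposited, median ratio, trimmed mean of log ratios, number range and equal total reads), 36 of the 81 lay toward ovary each time, 6 toward testis each time, and 39 changed side. All of these scalings except the number range shift every unigene by the same amount. The counts therefore rest on equal total reads, the values as deposited and the number range alone. Of these, the values as deposited widen the difference in depth between the libraries. The same counts were not made over all unigenes, so they do not set the helicases apart from other genes. Every unigene lay toward ovary under all 5 for 12 symbols: ddx19, ddx28, ddx39aa, ddx39ab, ddx49, ddx51, ddx52, ddx55, ddx56, ddx59, dhx30 and dhx57. Some of them lay close to the line, since within number range ddx56 was at -0.06 and Unigene_17888 of dhx57 at -0.01. The 6 toward testis under all 5 were Unigene_66904 of ddx21, Unigene_54565 of dhx33, Unigene_80269 of dhx40, both later-numbered unigenes of ddx6 and 1 ddx26b unigene, Unigene_26989, with 4 reads in ovary and 8 in testis, 2.67-fold (95% CI 0.714 to 12.1).

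Genes that work with the helicases had list medians between -0.48 and 0.80, which also moved with the unigene number. Centred within number range, the medians were 0.02 for mRNA export partners, -0.15 for germ granule partners, -0.23 for spliceosome partners, 0.20 for G-patch proteins and 0.03 for the RIG-I-like receptor pathway. They were 0.30 for other RNA helicases, 1.05 for exon junction and decay genes, 0.02 for partners of ddx6 and -0.14 for ribosome assembly partners. The counts at 4-fold below are to be read against backgrounds of 13.8% toward testis and 11.2% toward ovary. Other RNA helicases, 45 unigenes of only 10 symbols such as dicer1, setx and upf1, had a median log2 ratio of 0.50, against -0.65 for the ddx and dhx unigenes. Their median depth was 33 reads, against 251. At least 4-fold toward testis were 10 (22.2%), all of them later-numbered unigenes of setx, dicer1, mov10a and skiv2l, and 1 (2.22%) toward ovary. Unigenes of 1 symbol are not independent, so these shares do not count genes. On this list, the DEAD box translation factor eif4a1a, named after its values were seen, lay toward ovary in both unigenes, with log2 ratios of -1.62 and -1.27. The exon junction helicase eif4a3, named in the same way, had 1079 reads in ovary and 955 in testis and was 1.18-fold (95% CI 1.08 to 1.29) higher in testis. Spliceosome partners had a median of 0.05 over 46 unigenes, and G-patch proteins, which activate DEAH helicases, 0.80 over 33. Ribosome assembly partners had a median of -0.14 over 69 unigenes, with 2 (2.90%) at least 4-fold toward testis and 1 (1.45%) toward ovary. Their lowest member, nol11, was 4.96-fold (95% CI 4.25 to 5.83) higher in ovary, and their highest, nat10, with 1 read in ovary and 12 in testis, was 16-fold (95% CI 2.37 to 684) higher in testis. The mRNA export partners, 43 unigenes, had a median of -0.48, with 6 (14.0%) at least 4-fold toward ovary and 3 (6.98%) toward testis. Of these, thoc3, part of the complex that works with ddx39b, was 10.99-fold (95% CI 7.54 to 16.6) higher in ovary, from 425 reads in ovary and 29 in testis. At the other extreme mcm3ap, with 1 read in ovary and 21 in testis, was 28-fold (95% CI 4.50 to 1158) higher in testis.

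The lists nearest to ddx6, dhx34 and ddx58 had medians on the testis side. The storage and decapping partners of ddx6 had a median of 0.12 over 46 unigenes, and their extremes were wide apart. The decapping scaffold edc4 held 20 reads in ovary and 1118 in testis in 1 unigene, and lsm14b, a repressor of stored mRNA, held 4620 reads in ovary and 247 in testis and was 14-fold (95% CI 12.3 to 16) higher in ovary. Exon junction and nonsense-mediated decay genes had a median of 0.71 over 20 unigenes, with 16 of the 20 above the median of all unigenes, 5 (25%) at least 4-fold toward testis and 0 toward ovary. The RIG-I-like receptor pathway had a median of 0.37 over 13 unigenes, and germ granule partners 0.27 over 29, with 8 of the 29 (27.6%) at least 4-fold toward ovary and 2 (6.90%) toward testis.

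**Figure D5:**
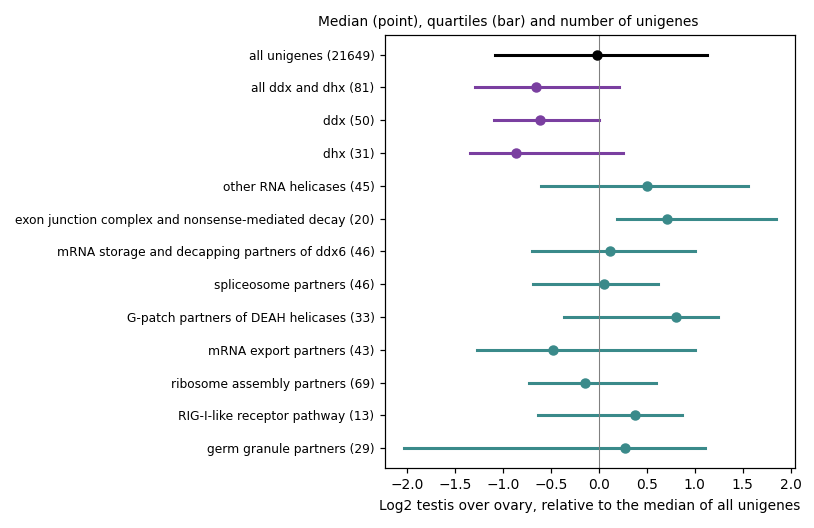
Median log2 ratio of testis over ovary relative to the median of all unigenes (points) with quartiles (bars) for all unigenes, the ddx and dhx unigenes and 9 partner lists, with the number of unigenes in brackets. The 3 helicase rows have medians between -0.87 and -0.62, and the medians of the partner lists lie between -0.48 and 0.80.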

How the data were processed

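Per the file headers, the expression table and the authors' lists for ovary and testis give a value per library for each unigene. The values are a normalised signal: the authors scaled the reads of each library by a single size factor before they were deposited. Low values increase by 2.31 units at a time in ovary and by 1.73 in testis. The product of both steps is 4, which 2 counts per step would give under median-of-ratios size factors. Dividing by such factors would also make the median unigene about equal in both libraries. Its deposited ratio of testis over ovary is 0.5625, so the deposited values are not level in that sense. The larger step is that of the ovary library, which has more reads, so these values widen the difference in depth. The reason was not tested. A step is called a read here, but pairs were not told apart from single reads. This gave whole reads within 0.01 for 22632 ovary and 22633 testis values of 22634 and for all 81 helicases. The deposited log2 fold change is column B over column A, recomputed for all 22487 unigenes of the table within 0.001. No header says how the deposited p-value was computed. Aligner, assembler and counting tool are not given in any source used here. The 147 unigenes of the testis list that the table lacks were added. The table has rows for the whole ovary list (127 unigenes) and for 24 of 171 in the testis list, so medians over the table alone can lean toward ovary. With the table alone the median log2 ratio of the helicases was -0.6523, against -0.6544 with the 147 added.

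The log2 ratio was log2 of (testis + 1) over (ovary + 1), minus its median over all unigenes. Calls use this log2 ratio and need 4-fold and at least 5 units in either library, a floor that all 81 helicases reached. Folds of single unigenes and summed symbols, with their intervals, come from reads without a pseudocount. A fold from few reads can thus exceed a threshold without being counted. Intervals are exact (Clopper-Pearson, 95%). With 1 library per tissue no count model was fitted. Computations used Python 3.11.15, pandas 2.3.3 and scipy 1.17.1 and were tested on simulated data. Members, roles, partner lists and number ranges were chosen with earlier results of these data known, and the roles of ddx20, dhx40 and dhx57 were settled after values were seen. Named by rule are the 8 highest and 8 lowest log2 ratios with at least 10 units, the 6 with the most units per library, the most abundant and the 3 most uneven of each role, and the highest or lowest of a partner list. Intervals of summed symbols, of ddx51 and of Unigene_15614 were added after their values were seen. Of 35 symbols, 19 matched the RefSeq annotation of ASM1834038v1, used for names only. The 9 partner lists found 152 of 209 symbols.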

Additional observations from a re-analysis of the deposited data

How the results depend on the processing

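No paired analysis was possible because each tissue has 1 library. Under 16 alternatives to 6 summary values, the following moved. The count at least 4-fold higher in testis, 3, was 0 with a pseudocount of 10, with values as deposited, centred within number range, with symbols summed and at a threshold of 8-fold, 1 with unigenes of at least 100 reads, 6 with equal total reads and 7 at 2-fold. The count at least 4-fold higher in ovary, 7, was 23 as deposited, 31 at 2-fold, 0 at 8-fold and with equal total reads, 1 with symbols summed (dhx30; ddx39ab was at -1.91 relative to the median over symbols), 3 with unigenes of at least 100 reads, centred on their own median, and 4 without ddx39ab. The medians as deposited were -1.48 for all helicases, -1.44 for ddx and -1.70 for dhx. With equal total reads, a scaling that shifts all unigenes alike, the medians of all helicases and of ddx turned to 0.10 and 0.14, and that of dhx was -0.12. The dhx median was -0.28 with symbols summed, and the ddx median was -0.18 centred within number range. The difference of ddx minus dhx, 0.26, turned to -0.24 with a pseudocount of 10 and to -0.37 with symbols summed. The dhx40 Unigene_80269 turned to -1.44 with its symbol summed, since the other unigene holds most reads. Of the 31 single unigenes chosen by the naming rule, the log2 ratio left its counting interval in 22 as deposited, 25 centred within number range, 21 with equal total reads, 14 with a pseudocount of 10 and 16 with symbols summed, besides dhx40, and in none with a pseudocount of 0.1 or a trimmed mean of log ratios. Equal totals, the 100-read limit and leaving out ddx39ab were chosen after seeing the data. Apart from the alternatives' own construction, the cause was not tested. Under 100 reads the intervals are wide, which limits most dhx unigenes.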

Other observations

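Outside the symbol rule, 3 unigenes carry the protein name DEAD box polypeptide 41 with locus names in place of a gene symbol. They held 100, 104 and 122 reads in ovary against 86, 69 and 94 in testis, and all 3 intervals of the ratio included the median of all unigenes. Whether they are carp transcripts was not tested.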
